A study of Rattus norvegicus with 20 samples.

Results

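The T cell receptor complex and lymphocyte genes are 10 genes chosen by name: Cd3e, Cd3d, Cd3g, Cd4, Cd8a, Cd8b, Lck, Tcf7, Il7r and Ccr7. Each was found under its symbol in the table of 19060 rat genes, and all 10 passed the filter on low counts that left 14794 genes for testing. RNA was sequenced from the lungs of 20 rats in 4 groups of 5 libraries. CLP rats underwent cecal ligation and puncture, an abdominal operation that opens the gut wall, used here as a model of acute respiratory distress syndrome, and received no nerve stimulation. Sham rats had the abdomen opened along the midline and the cecum handled, with neither ligation nor puncture, and also went without stimulation. CLP+VNS rats had cecal ligation and puncture together with right cervical vagus nerve stimulation, applied at the neck, and Sham+VNS rats had the sham operation with the same treatment of the nerve. Every group therefore carried a laparotomy. The sources used here give neither strain, age or sex nor the time between operation and lung collection. Replicate numbers below are those of the sample titles.

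The T cell receptor signals through the CD3 chains, which carry the signalling motifs that the antigen-binding chains lack. The coreceptors CD4 and CD8 bind to major histocompatibility molecules and bring the kinase LCK to the receptor. TCF-1, the product of Tcf7, and the interleukin-7 receptor maintain naive and memory T cells, and CCR7 guides them into lymphoid tissue. In rats, CD4 is also carried by monocytes and macrophages and the CD8 alpha chain by natural killer cells, so that the coreceptor genes are less restricted to T cells than the CD3 genes.

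Cd3e, Cd3d and Cd3g lie together on rat chromosome 8, and in the RefSeq annotation of build GRCr8 the start sites of Cd3d and Cd3g point away from each other and are 1601 bases apart. The 250 bases before the start site are shown for these 3 genes, which had among the lowest log2 changes of the 10, and for Il7r, the gene of the 10 that changed in the other direction. The sequences are RefSeq's from GRCr8, each read 5′ to 3′ on its gene's strand, at chr8:54211771-54212020 on the minus strand for Cd3e, chr8:54185269-54185518 on the plus strand for Cd3d, chr8:54183919-54184168 on the minus strand for Cd3g and chr2:60204918-60205167 on the minus strand for Il7r. Capitals mark matches, on either strand, to AGGAAG (the core bound by ETS factors), TGTGGT (RUNX), CTTTGA (TCF/LEF, the family of Tcf7) and CAGNTG (E-box).
Cd3e: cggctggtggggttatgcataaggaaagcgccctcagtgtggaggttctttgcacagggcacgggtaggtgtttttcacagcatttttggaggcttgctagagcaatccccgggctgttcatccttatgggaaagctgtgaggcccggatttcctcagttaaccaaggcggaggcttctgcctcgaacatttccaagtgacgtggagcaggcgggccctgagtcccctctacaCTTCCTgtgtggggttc
Cd3d: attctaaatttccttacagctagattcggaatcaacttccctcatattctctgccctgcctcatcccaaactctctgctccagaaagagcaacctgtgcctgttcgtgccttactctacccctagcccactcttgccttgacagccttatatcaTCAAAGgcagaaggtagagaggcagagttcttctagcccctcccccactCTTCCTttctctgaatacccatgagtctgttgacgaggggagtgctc
Cd3g: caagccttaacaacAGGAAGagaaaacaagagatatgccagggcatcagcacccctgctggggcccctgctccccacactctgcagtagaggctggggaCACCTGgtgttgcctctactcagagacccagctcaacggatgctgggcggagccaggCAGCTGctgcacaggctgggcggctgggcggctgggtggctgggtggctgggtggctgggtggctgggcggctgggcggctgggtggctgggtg
Il7r: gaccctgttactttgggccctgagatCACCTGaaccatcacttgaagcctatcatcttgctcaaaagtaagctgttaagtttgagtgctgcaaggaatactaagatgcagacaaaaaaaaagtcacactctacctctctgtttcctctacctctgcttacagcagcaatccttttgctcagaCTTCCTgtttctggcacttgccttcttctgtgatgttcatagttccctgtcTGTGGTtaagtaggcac
Promoter entries were found for 7 of the 10 genes, the others being Cd4, Cd8b and Ccr7. AGGAAG occurred in 6 of those 7 (Cd3e, Cd3d, Cd3g, Lck, Tcf7 and Il7r) and in 29.5% of the 33469 rat promoter windows of the same length. TGTGGT occurred in Lck and Il7r and in 14.5% of all windows, CTTTGA in Cd3d and in 13.9%, and CAGNTG in Cd3g, Il7r and Lck and in 43.3%. Lck has 2 listed start sites and was counted where either window held a match. Cd8a held none of the 4 in its window. The ETS core was thus present in the windows of all 3 CD3 genes and of Il7r. These matches describe the letters of the windows and say nothing of which factors were bound.

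Libraries were of even depth, with 13729646 to 14453181 counts each. Values below are CPM, counts scaled to library size, after TMM scaling unless TPM, which allow for transcript length, are named. The fat cell gene Adipoq stood at 285 CPM in Sham replicate 1, 96.2 CPM in Sham+VNS replicate 2, 16.2 CPM in Sham+VNS replicate 4 and 9.71 CPM in Sham replicate 2, and at no more than 1.29 CPM in the other 16 libraries. Sham replicate 1 was also the highest Sham library for Cd3e, Cd3d, Cd3g, Cd4, Cd8a, Cd8b and Il7r. The part of adipose RNA in the results was not tested, and the values without these libraries stand beside the results they change. The thymocyte markers summed to at most 1.18 CPM in any library, and none of that list's 4 genes was tested. The surfactant gene Sftpc, which marks the alveolar epithelium of the lung, averaged 13700 CPM in CLP, 13200 in Sham, 12800 in CLP+VNS and 14300 in Sham+VNS libraries. A list of 6 lung tissue genes that includes Sftpc summed to 18500 CPM in Sham replicate 1, the lowest of all libraries. The other Sham libraries had 26000 to 29900 CPM. In bulk lung RNA, fewer cells of a type and less RNA per cell cannot be told apart.

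In TPM, Cd4 was the most abundant of the 10 in every group and Cd8b the least abundant. In CLP lungs the order was Cd4 (15.0 ± 1.39 TPM), Cd8a (8.81 ± 1.40), Il7r (8.27 ± 0.354), Tcf7 (6.32 ± 0.865), Cd3g (6.2 ± 1.18), Lck (5.96 ± 0.547), Cd3d (3.81 ± 0.888), Cd3e (3.55 ± 0.400), Ccr7 (3.31 ± 0.955) and Cd8b (1.37 ± 0.536; SD, n = 5). Neighbours in that order did not overlap between Cd4 and Cd8a, between Il7r and Tcf7 and between Lck and Cd3d, and overlapped elsewhere. In Sham lungs the order was Cd4 (28.4 ± 7.41 TPM), Cd3g (19.7 ± 6.18), Cd8a (14.6 ± 3.76), Tcf7 (14.4 ± 1.5), Lck (13.6 ± 1.69), Cd3d (13.3 ± 4.45), Cd3e (10.0 ± 2.94), Ccr7 (6.85 ± 1.78), Il7r (6.33 ± 0.744) and Cd8b (1.98 ± 0.768; SD, n = 5). There, the only neighbours whose libraries did not overlap were Il7r and Cd8b. Il7r thus stood at rank 3 in CLP lungs and at rank 9 in Sham lungs. In the stimulated groups Il7r ranked 5 with 7.02 ± 0.876 TPM in CLP+VNS lungs and 8 with 6.49 ± 1.22 TPM in Sham+VNS lungs, where it overlapped both neighbours in each group.

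After cecal ligation and puncture without stimulation, 8 of the 10 genes fell and 1 rose. Cd3e, Cd3d, Cd3g, Cd4, Cd8a, Lck, Tcf7 and Ccr7 fell in CLP lungs relative to Sham lungs, Il7r rose, and Cd8b did not pass (edgeR quasi-likelihood test, Benjamini-Hochberg adjusted p below 0.05 over all tested genes). Over all 14794 genes, 20.5% were called lower and 19.8% higher in that comparison. The members' median log2 change was -1.03, against -0.01 over all tested genes. For 7 of the 10 the CLP and Sham libraries did not overlap (all but Cd8a, Cd8b and Ccr7), a separation that 26.1% of all tested genes showed. The same 8 genes fell in CLP+VNS lungs relative to Sham+VNS lungs, where 13.4% of all genes were called lower and 13.9% higher, and there neither Il7r nor Cd8b passed. The members' median log2 change in that comparison was -0.73, against -0.01 over all genes, and the libraries of the 2 groups did not overlap for Cd3e alone of the 10, against 18.9% of all genes. These 2 comparisons share no library, although 1 fit estimated the spread for both.

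**Figure D1:**
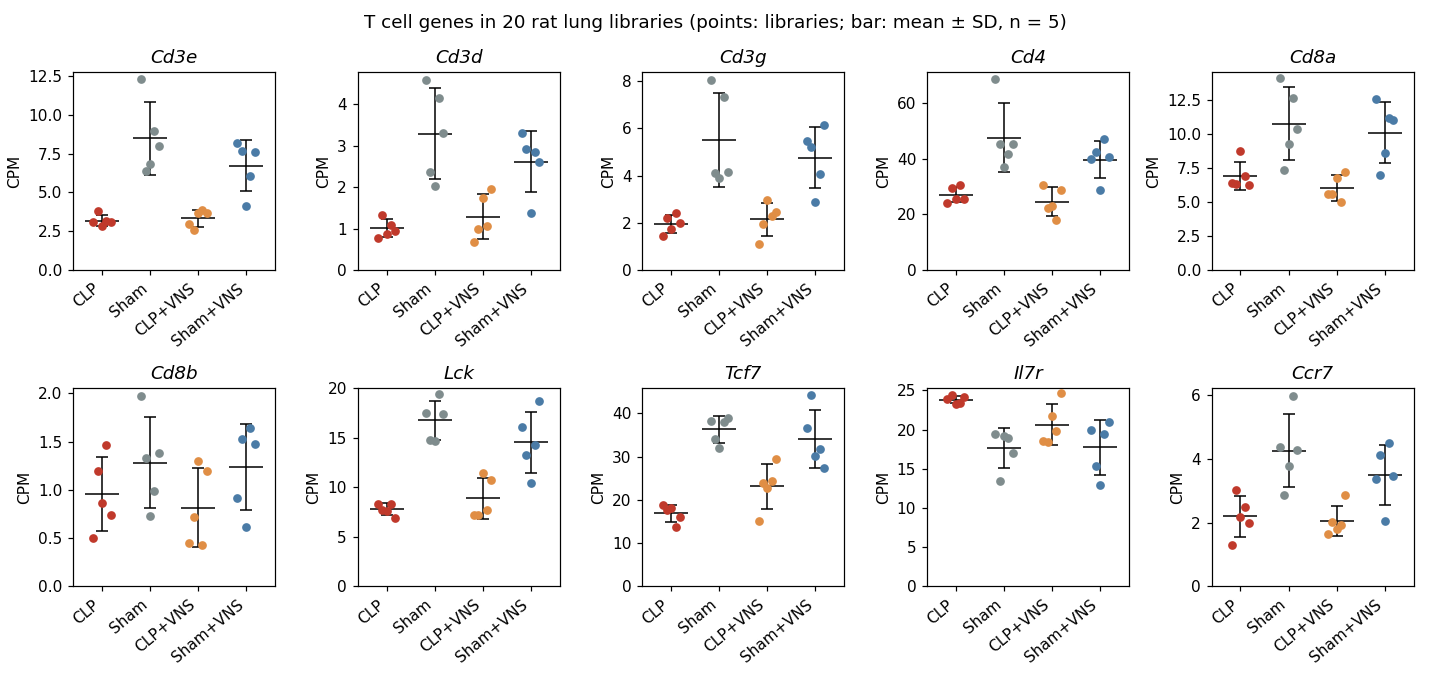
CPM of each of the 10 genes in each library, 1 panel per gene, with the groups CLP, Sham, CLP+VNS and Sham+VNS from left to right. Points are libraries and bars the mean ± SD (n = 5); the CLP points of the 3 CD3 genes, Cd4, Lck and Tcf7 lie below every Sham point, those of Il7r lie above them, and the 4 groups of Cd8b overlap.

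The CD3 chain genes showed the largest falls of the 10. Cd3e, which encodes the epsilon chain present in every receptor complex, had 3.07, 3.81, 2.82, 3.15 and 3.09 CPM in CLP libraries, against 12.3, 6.36, 6.82, 8.93 and 8.01 CPM in Sham libraries. The highest CLP library stayed below the lowest Sham library. The log2 change was -1.41 ± 0.20 (SE, adjusted p = 1.62e-05), a level 62.3% lower. Cd3d, the delta chain gene, had 0.786, 1.34, 0.868, 1.10 and 0.955 CPM in CLP libraries, against 4.58, 2.38, 2.03, 4.15 and 3.31 CPM in Sham libraries. Its groups were again apart, on 11 to 19 counts per CLP library and 28 to 65 per Sham library, and its log2 change of -1.70 ± 0.30 (adjusted p = 0.000193) had the widest error of the 3. Cd3g, the gamma chain gene, had 1.43, 2.19, 1.74, 2.42 and 1.98 CPM in CLP libraries, against 8.04, 4.12, 3.92, 7.31 and 4.14 CPM in Sham libraries. It fell by 1.49 ± 0.27 on the log2 scale (adjusted p = 0.00023), with no overlap. Without Sham replicate 1, the highest Sham library for all 3, the log2 changes were -1.24 for Cd3e, -1.55 for Cd3d and -1.32 for Cd3g, and all 3 still passed (adjusted p = 3.8e-05, 0.000671 and 0.000802 in that order).

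With stimulation in both groups the CD3 genes were lower as well. Cd3e had 2.98, 2.58, 3.67, 3.85 and 3.65 CPM in CLP+VNS libraries, against 8.15, 7.65, 4.12, 6.06 and 7.60 CPM in Sham+VNS libraries. No CLP+VNS library reached the lowest Sham+VNS library, replicate 3, and the log2 change was -1.0 ± 0.20 (adjusted p = 0.000748). Cd3d averaged 1.29 ± 0.539 CPM in CLP+VNS lungs and 2.61 ± 0.736 CPM in Sham+VNS lungs, a log2 change of -1.01 ± 0.30 (adjusted p = 0.0153). Cd3g averaged 2.15 ± 0.683 CPM in CLP+VNS lungs and 4.75 ± 1.28 CPM in Sham+VNS lungs, a log2 change of -1.14 ± 0.27 (adjusted p = 0.00352; SD, n = 5). Both overlapped through Sham+VNS replicate 3, which had 1.37 CPM of Cd3d and 2.88 CPM of Cd3g. With only the libraries at or below 5 CPM of Adipoq, Cd3d had a log2 change of -0.91 and no longer passed (adjusted p = 0.0755), while Cd3e and Cd3g did.

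The coreceptor genes changed less. Cd4 had 24.2, 29.4, 25.7, 30.7 and 25.5 CPM in CLP libraries, against 68.6, 45.1, 37.0, 41.8 and 45.2 CPM in Sham libraries. All CLP libraries lay below all Sham libraries, and Sham replicate 1 stood far above the other 4. Cd4 fell by 0.81 ± 0.16 on the log2 scale (adjusted p = 0.000615), and the log2 change without that library was -0.64 (adjusted p = 0.0016). Cd4 averaged 24.6 ± 5.09 CPM in CLP+VNS lungs and 39.7 ± 6.75 CPM in Sham+VNS lungs, a log2 change of -0.69 ± 0.16 (adjusted p = 0.00373; SD, n = 5). Cd8a, which encodes the alpha chain of CD8, had 6.43, 6.35, 8.76, 6.88 and 6.25 CPM in CLP libraries, against 14.1, 7.34, 9.29, 12.7 and 10.4 CPM in Sham libraries. The groups overlapped through CLP replicate 4 and Sham replicate 2, and the log2 change was -0.63 ± 0.18 (adjusted p = 0.00797). Cd8a averaged 6.03 ± 0.930 CPM in CLP+VNS lungs and 10.1 ± 2.24 CPM in Sham+VNS lungs, a log2 change of -0.74 ± 0.18 (adjusted p = 0.00423; SD, n = 5).

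Cd8b, the beta chain gene that restricts CD8 to conventional T cells when paired with the alpha chain, was the least abundant member. It had 0.5, 1.2, 0.868, 1.47 and 0.735 CPM in CLP libraries, against 1.98, 1.33, 0.726, 0.985 and 1.38 CPM in Sham libraries. The groups overlapped widely, and the log2 change of -0.42 ± 0.37 did not pass (adjusted p = 0.386). Its 95% interval ran from -1.2 to 0.35, which holds both no change and a fall like that of Lck but not one as large as that of Cd3d. The change in CLP+VNS relative to Sham+VNS lungs was -0.59 ± 0.37 (adjusted p = 0.267). The gene had 6 to 28 counts per library, with the lowest, 6 counts, in CLP+VNS replicates 1 and 8. A count of 6 has an exact Poisson 95% interval of 2.20 to 13.1 counts, which covers counting error only.

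The balance of the coreceptor genes within a library was compared as log2 Cd8a minus log2 Cd4. It averaged -1.95 ± 0.26 in CLP libraries and -2.13 ± 0.33 in Sham libraries, a difference of 0.18 (SD, n = 5, exact two-sided permutation test, p = 0.365, adjusted p = 0.921 over the 4 comparisons). The difference was -0.02 for CLP+VNS relative to Sham+VNS lungs (exact permutation p = 0.937). Neither passed, and the range of the ratio over libraries was wide, from -2.18 to -1.54 in CLP and from -2.60 to -1.71 in Sham lungs.

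Lck encodes the kinase that phosphorylates the CD3 chains when the receptor is engaged. It had 8.36, 7.77, 7.60, 8.35 and 6.91 CPM in CLP libraries, against 17.5, 14.8, 14.7, 19.4 and 17.4 CPM in Sham libraries. The groups lay far apart with little spread in either, and Lck fell by 1.10 ± 0.15 on the log2 scale (adjusted p = 1.33e-05). In CLP+VNS libraries it had 7.23, 7.24, 11.5, 7.76 and 10.7 CPM, against 16.2, 13.3, 10.5, 14.3 and 18.7 CPM in Sham+VNS libraries. CLP+VNS replicates 5 and 11 reached Sham+VNS replicate 3, and the log2 change was -0.71 ± 0.15 (adjusted p = 0.00141). Of the 5 Lck transcripts listed, the most abundant held 81.0% of the gene's estimated counts. It held 61.0 ± 22% in CLP libraries and 86.1 ± 9.49% in Sham libraries (SD, n = 5), with single CLP libraries between 33.7% and 91.7% and Sham libraries between 73.9% and 95.9%. These shares overlapped, were not tested, and rest on the authors' division of reads among transcripts.

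Tcf7, the gene of the transcription factor TCF-1, had 18.7, 17.7, 18.1, 13.8 and 16.0 CPM in CLP libraries, against 38.3, 34.1, 32.0, 38.0 and 38.9 CPM in Sham libraries. It fell by 1.10 ± 0.15 on the log2 scale (adjusted p = 9.74e-06), the lowest adjusted p of the 10, and the closest libraries of the 2 groups were 18.7 CPM in CLP and 32.0 CPM in Sham. In CLP+VNS libraries Tcf7 had 15.1, 23.9, 22.8, 24.3 and 29.4 CPM, against 36.7, 44.3, 30.2, 31.8 and 27.3 CPM in Sham+VNS libraries. The groups met at CLP+VNS replicate 11 and Sham+VNS replicate 5, and the log2 change was -0.56 ± 0.14 (adjusted p = 0.00646). With only the libraries at or below 5 CPM of Adipoq it was -0.45 and did not pass (adjusted p = 0.0569).

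Ccr7, the receptor for the chemokines CCL19 and CCL21, had 1.29, 3.04, 2.17, 2.49 and 1.98 CPM in CLP libraries, against 4.37, 2.87, 3.77, 5.98 and 4.28 CPM in Sham libraries. It fell by 0.95 ± 0.24 on the log2 scale (adjusted p = 0.00419), with CLP replicate 3 just above Sham replicate 2. It averaged 2.05 ± 0.483 CPM in CLP+VNS lungs and 3.50 ± 0.929 CPM in Sham+VNS lungs, a log2 change of -0.77 ± 0.25 (adjusted p = 0.0256; SD, n = 5). That call was the least firm of the 8. It was lost without Sham+VNS replicate 2 (adjusted p = 0.0561) or replicate 4 (0.0752), without CLP+VNS replicate 1 (0.0649), 5 (0.0578) or 8 (0.0521), and with only the libraries at or below 5 CPM of Adipoq (log2 change -0.53, adjusted p = 0.188).

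Il7r, the gene of the interleukin-7 receptor alpha chain, went the other way. It had 23.9, 24.4, 23.2, 23.4 and 24.2 CPM in CLP libraries, against 19.5, 13.5, 19.2, 19.0 and 17.1 CPM in Sham libraries. Every CLP library lay above every Sham library, and the CLP libraries differed from one another by little (SD 0.476 CPM around a mean of 23.8). Il7r rose by 0.43 ± 0.12 on the log2 scale (adjusted p = 0.00837), a fold change of 1.35 with a 95% interval of 1.13 to 1.62. It had 18.5, 18.4, 21.8, 19.9 and 24.7 CPM in CLP+VNS libraries, against 20.0, 15.3, 12.9, 19.5 and 21.0 CPM in Sham+VNS libraries. Those groups overlapped and the log2 change of 0.22 ± 0.12 did not pass (adjusted p = 0.198). The more abundant of its 2 listed transcripts held 76.6 ± 5.11% of its counts in CLP libraries and 81.7 ± 5.92% in Sham libraries (SD, n = 5). Il7, which encodes the cytokine that this receptor binds and was named after its values were seen, fell by 0.75 on the log2 scale in CLP relative to Sham lungs (adjusted p = 0.0156) and by 0.80 in CLP+VNS relative to Sham+VNS lungs (adjusted p = 0.0158).

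**Figure D2:**
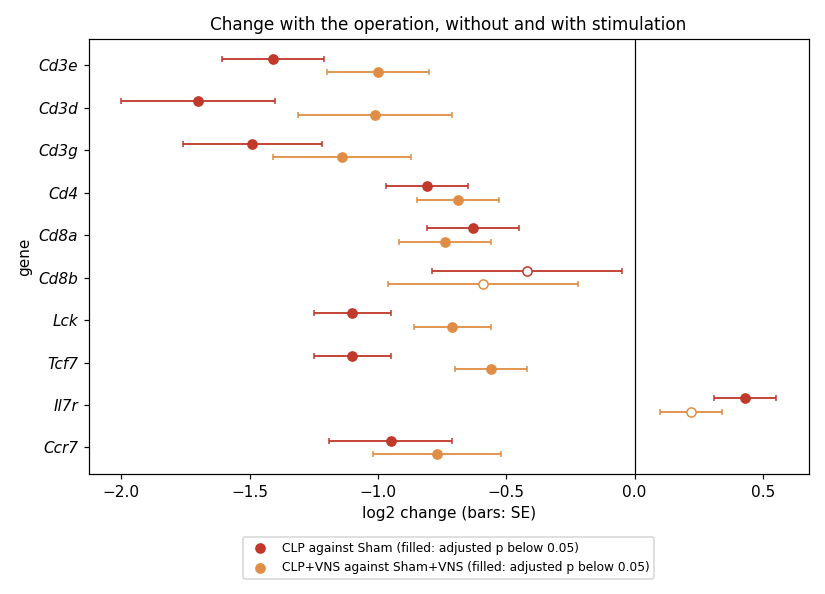
Log2 change of each gene in CLP against Sham and in CLP+VNS against Sham+VNS lungs, with bars of 1 SE and filled points for an adjusted p below 0.05. The 3 CD3 genes lie farthest to the left in CLP against Sham, at -1.41, -1.70 and -1.49, and Il7r alone lies to the right of 0, at 0.43 in CLP against Sham and, unfilled, at 0.22 in CLP+VNS against Sham+VNS.

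To see how the members moved relative to the receptor complex within each library, each was expressed as a log2 ratio to Cd3e. With 5 libraries against 5 the exact two-sided permutation test cannot give a p below 0.00794, which became 0.0714 after adjustment over the 36 tests, and none passed. Of the 36, 6 had an unadjusted p below 0.05. Il7r relative to Cd3e averaged 2.85 ± 0.13 in CLP libraries and 1.07 ± 0.29 in Sham libraries, a difference of 1.78 with every CLP library above every Sham library (exact permutation p = 0.00794). Cd4 relative to Cd3e averaged 3.03 ± 0.14 in CLP libraries and 2.47 ± 0.21 in Sham libraries, a difference of 0.56 with no overlap (exact permutation p = 0.00794). Cd8a relative to Cd3e averaged 1.08 ± 0.32 in CLP libraries and 0.34 ± 0.14 in Sham libraries, a difference of 0.74 with no overlap (exact permutation p = 0.00794; SD, n = 5 each). Cd4 and Cd8a thus had, per unit of Cd3e, higher values in all CLP than in all Sham libraries although both fell in level. Cd3e itself had a log2 change of -1.41, against a median of -0.01 over all tested genes. A gene of unchanged level therefore also rises relative to Cd3e. The share of all tested genes that separate in this ratio was not computed.

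The CLP and Sham libraries overlapped in their ratio to Cd3e for the remaining members. The difference was -0.19 for Cd3d (exact permutation p = 0.143), -0.04 for Cd3g (0.762), 0.25 for Lck (0.0952), 0.24 for Tcf7 (0.198) and 0.42 for Ccr7 (0.127). For Cd8b it was 0.96 (exact permutation p = 0.0159, adjusted p = 0.114), larger than for Cd4 or Cd8a. Relative to Cd3e, Il7r averaged 2.58 ± 0.17 in CLP+VNS libraries and 1.40 ± 0.27 in Sham+VNS libraries, a difference of 1.18 with no overlap (exact permutation p = 0.00794). Cd3e itself had a log2 change of -1.0 there. The differences for Cd4 and Cd8a in that comparison, 0.26 and 0.24, came with overlapping libraries (exact permutation p = 0.286 and 0.357 in that order).

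**Figure D3:**
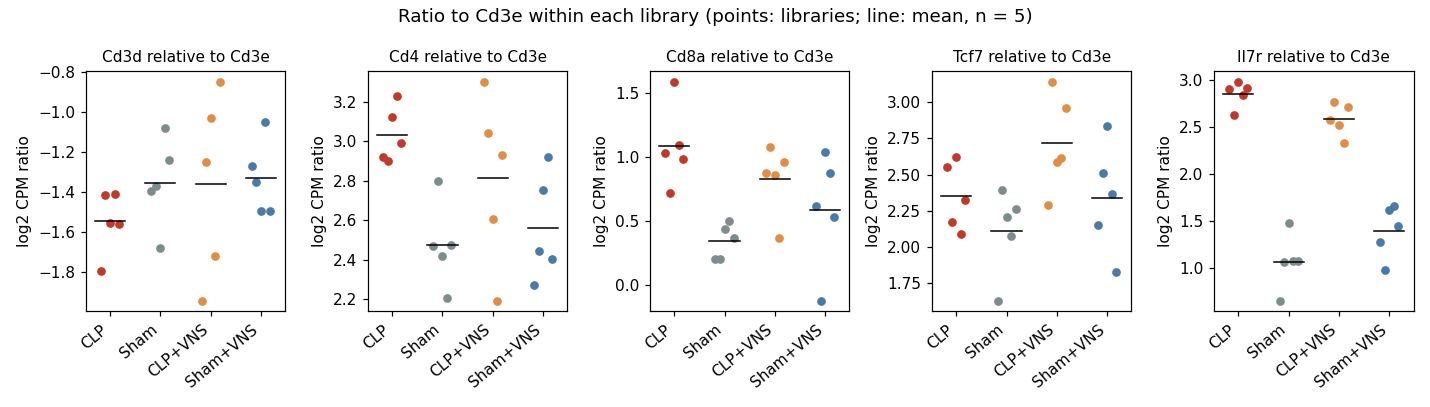
Log2 ratio of CPM to Cd3e within each library for Cd3d, Cd4, Cd8a, Tcf7 and Il7r, with the groups CLP, Sham, CLP+VNS and Sham+VNS from left to right, points for libraries and lines for means (n = 5). The Il7r ratio averages 2.85 in CLP and 1.07 in Sham libraries without overlap, while the Cd3d ratios overlap at means of -1.54 in CLP and -1.35 in Sham libraries.

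Stimulation of the vagus nerve gave no call among the 10 genes in either operation. In CLP+VNS relative to CLP lungs none passed, 1 had an unadjusted p below 0.05, and 0.027% of all tested genes were called. DESeq2 called 144 genes in that comparison, limma none, and neither called a member. Tcf7 was the member with that unadjusted p, with the values per library given above, mean 23.1 ± 5.13 CPM in CLP+VNS lungs and 16.9 ± 1.97 CPM in CLP lungs (SD, n = 5). Of the CLP+VNS libraries, 4 of 5 lay above every CLP library, and replicate 1, at 15.1 CPM, lay within their range. The log2 change was 0.45 ± 0.15 with a 95% interval of 0.14 to 0.76 (unadjusted p = 0.00608, adjusted p = 0.208). Without CLP+VNS replicate 1 it was 0.57 and passed (adjusted p = 0.0258), in a fit that called 277 genes in place of 4. That library was also the lowest of CLP+VNS for Cd3d, Cd3g and Ccr7 and the highest for Cd4.

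The other 9 had log2 changes between -0.22 for Cd8b and 0.35 for Cd3d in CLP+VNS relative to CLP lungs, with adjusted p from 0.493 to 0.915. The 95% intervals were -0.36 to 0.50 for Cd3e, -0.49 to 0.21 for Cd4, -0.14 to 0.52 for Lck and -0.46 to 0.05 for Il7r. In Sham+VNS relative to Sham lungs no member passed and none had an unadjusted p below 0.05, while 0.0% of all tested genes were called by edgeR, with 1185 genes at an unadjusted p below 0.05, 6 genes called by DESeq2 and none by limma. There 9 of the 10 log2 changes were below 0, from -0.34 ± 0.19 for Cd3e to 0.01 ± 0.12 for Il7r, with adjusted p from 0.667 to 0.997. Without Sham replicate 1 the Cd3e value was -0.17, and Cd8a and Cd8b were above 0. The interaction, the change with stimulation in CLP lungs minus that in sham-operated lungs, called no member and 0.0% of all genes with edgeR, against 6 genes with DESeq2 and none with limma. Over all genes 1217 had an unadjusted p below 0.05, and among the 10 only Tcf7 did, with 0.54 ± 0.20 (unadjusted p = 0.0152, adjusted p = 0.535). Lck had 0.39 ± 0.21 (adjusted p = 0.654). Smaller falls with the operation in the stimulated than in the unstimulated rats, such as -0.56 against -1.10 for Tcf7, were therefore not shown to differ. Cd8a and Cd8b instead had lower log2 changes in the stimulated rats, at -0.74 against -0.63 and -0.59 against -0.42, also without a call for the interaction.

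**Figure D4:**
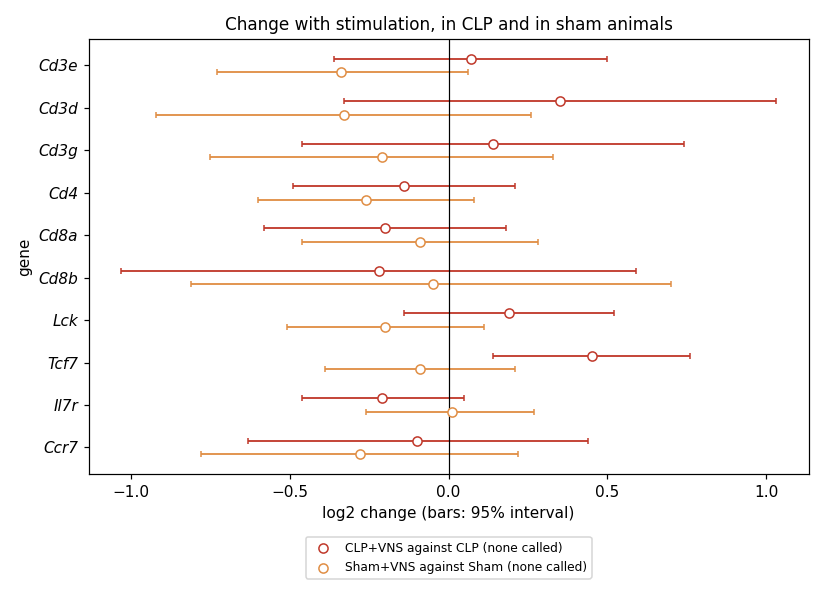
Log2 change of each gene with stimulation, in CLP+VNS against CLP and in Sham+VNS against Sham lungs, with bars of the 95% interval. No point was called; the interval of Tcf7 in CLP+VNS against CLP lungs, 0.14 to 0.76, is the only one of the 20 that leaves out 0.

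Other genes of T cell receptor signalling, in a list chosen with earlier results of these data known, were mostly lower after cecal ligation and puncture. Of 27 tested genes, 17 fell and 5 rose in CLP relative to Sham lungs, with a median of -0.78. In CLP+VNS relative to Sham+VNS lungs 9 fell and 3 rose, with a median of -0.45. When single libraries were left out, calls in either direction numbered 19 to 22 without stimulation and 9 to 15 with it. The shares of all tested genes were 20.5% lower and 19.8% higher in the first comparison, and 13.4% and 13.9% in the second. Cd247, the zeta chain of the receptor, averaged 2.70 ± 0.208 CPM in CLP lungs and 5.73 ± 0.875 CPM in Sham lungs (log2 change -1.08, adjusted p = 1.46e-05; SD, n = 5). The kinase gene Zap70 fell by 0.61 on the log2 scale (adjusted p = 0.00632), the costimulatory receptor Cd27 by 1.94 (adjusted p = 0.000123) and the inhibitory surface receptor Cd5 by 1.67 (adjusted p = 0.000119). The genes that rose included Cblb, a ubiquitin ligase that restrains receptor signalling, with 1.25 on the log2 scale (adjusted p = 4.34e-09), and Vav1, an exchange factor used in many blood cells, with 0.38 (adjusted p = 6.18e-05). Cblb averaged 167 CPM in CLP lungs and 70.5 CPM in Sham lungs, far above Cd3e at 3.19 and 8.48 CPM in that order. Which cells of the lung held the Cblb transcripts was not tested.

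Among 15 transcription factors of T cells, 7 fell and 2 rose in CLP relative to Sham lungs, with a median of -0.25. The shares of all tested genes there were 20.5% lower and 19.8% higher. Lef1, the close relative of Tcf7, fell by 1.42 on the log2 scale (adjusted p = 0.000318), and Bcl11b, needed for T cell commitment, fell by 1.04 (adjusted p = 0.000262). Runx1 rose by 0.40 (adjusted p = 0.000117) and Zbtb7b, a factor of the CD4 lineage that other cells also use, rose by 0.30 (adjusted p = 0.000754). In CLP+VNS relative to Sham+VNS lungs 3 of these 15 fell and 2 rose, with a median of 0.08, against 13.4% and 13.9% of all genes. Bcl11b fell there by 0.68 (adjusted p = 0.0104), while Lef1 had a log2 change of -0.57 that did not pass (adjusted p = 0.113).

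Genes of recirculation and homing, to which Ccr7 belongs by function, were called in both directions. Of 19 tested, 5 fell and 6 rose in CLP relative to Sham lungs, against 20.5% and 19.8% of all tested genes. The total of 11 calls was 5 without Sham replicate 1 and 7 without Sham replicate 5, CLP replicate 1 or CLP replicate 4. It was also 5 with only the libraries at or below 5 CPM of Adipoq. Ccl19, a ligand of CCR7, fell by 0.93 on the log2 scale (adjusted p = 0.0423) at a mean of 0.747 CPM in CLP lungs and 1.44 CPM in Sham lungs. Cxcr4, the receptor for CXCL12, fell by 0.89 (adjusted p = 2.69e-05). S1pr1, which lymphocytes use to leave tissue and which endothelium expresses strongly, rose by 0.61 (adjusted p = 1.26e-05). In CLP+VNS relative to Sham+VNS lungs 4 of the 19 fell and 2 rose, against 13.4% and 13.9% of all genes. S1pr1 was up by 0.94 there (adjusted p = 2.6e-07).

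Subset and activation genes and inhibitory receptors showed no common direction. Of 12 subset and activation genes tested, 2 fell and 2 rose in CLP relative to Sham lungs, near the 20.5% and 19.8% of all genes. In CLP+VNS relative to Sham+VNS lungs 1 fell and 3 rose, where 13.4% and 13.9% of all genes did. Foxp3, the factor of regulatory T cells, had 0.951 CPM in CLP lungs and 1.06 CPM in Sham lungs (log2 change -0.15 ± 0.31, adjusted p = 0.741), and Il2ra had a log2 change of -0.15 ± 0.24 (adjusted p = 0.651). Tbx21, the T-bet gene shared with natural killer cells, fell by 0.69 (adjusted p = 0.0102), while Bcl6 rose by 1.12 (adjusted p = 7.75e-08) and Batf by 1.06 (adjusted p = 5.62e-05). Bcl6 averaged 90.5 CPM in CLP and 41.5 CPM in Sham lungs, and which cells held its transcripts was not tested. Of 9 inhibitory receptors and ligands, 3 fell and 3 rose in CLP relative to Sham lungs. In CLP+VNS relative to Sham+VNS lungs 2 fell and 2 rose, beside the same shares of all genes. Btla, carried by B and T cells, fell by 1.17 (adjusted p = 0.00254), Havcr2 rose by 0.66 (adjusted p = 0.0101), and Pdcd1, at 0.434 CPM in CLP lungs and 0.636 CPM in Sham lungs, did not pass (adjusted p = 0.362).

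Markers of other blood cells were measured in the same samples. Of 11 B cell genes tested, 6 were called lower and none higher in CLP relative to Sham lungs, with a median of -0.55. In CLP+VNS relative to Sham+VNS lungs 4 were called lower and none higher. When single libraries were left out, the calls numbered 4 to 6 without stimulation and 3 to 5 with it. All tested genes were called lower at 20.5% and 13.4% in that order. The B cell list summed to 87.1 to 132 CPM in CLP and 126 to 206 CPM in Sham libraries, which overlapped. Cd79a, a chain of the B cell receptor, averaged 9.04 CPM in CLP lungs and 21.3 CPM in Sham lungs (log2 change -1.24, adjusted p = 0.0002). Of 10 natural killer and cytotoxic cell genes, 2 fell, Ctsw by 1.47 (adjusted p = 0.00273) and Klrb1a by 0.55 (adjusted p = 0.0456), a share close to the 20.5% of all genes called lower. That count was 1 to 3 when single libraries were left out, 1 with no count filter and 5 with limma. The list's summed level was 49.5 to 94.1 CPM in CLP and 69.5 to 101 CPM in Sham libraries. All 9 neutrophil genes tested rose in CLP relative to Sham lungs, where 19.8% of all tested genes were called higher. In CLP+VNS relative to Sham+VNS lungs 7 of the 9 rose, against 13.9% of all genes. Mpo, the list's other gene, was not tested and averaged 0.0866 CPM in CLP and 2.03 CPM in Sham lungs. The whole list summed to 4270 to 5920 CPM in CLP and 374 to 987 CPM in Sham libraries. With stimulation it summed to 2050 to 5560 CPM in CLP+VNS and 304 to 761 CPM in Sham+VNS libraries.

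Monocyte and macrophage genes, which bear on Cd4 in rats, summed to 14200 to 18500 CPM in CLP and 13500 to 18900 CPM in Sham libraries, but these sums were mostly the lysozyme gene Lyz2, which averaged 15800 CPM in CLP and 15000 CPM in Sham lungs. The other 12 genes summed to 1070 to 1330 CPM in CLP and 656 to 799 CPM in Sham libraries, without overlap, and to 788 to 1180 CPM in CLP+VNS and 667 to 815 CPM in Sham+VNS libraries. The largest part of these sums was Mrc1, a gene of the list named after its values were seen. It averaged 645 CPM in CLP, 325 CPM in Sham, 499 CPM in CLP+VNS and 370 CPM in Sham+VNS lungs. Of 13 tested, 5 rose and none fell in CLP relative to Sham lungs, and 4 rose and 1 fell in CLP+VNS relative to Sham+VNS lungs. Over all tested genes 19.8% were called higher in the first comparison and 13.9% in the second. Cd14 rose by 1.40 on the log2 scale (adjusted p = 5.86e-07) and Adgre1 by 2.57 (adjusted p = 3.43e-07), while Csf1r, the receptor for macrophage colony-stimulating factor, had -0.21 and did not pass (adjusted p = 0.126). In CLP+VNS relative to Sham+VNS lungs Csf1r fell by 0.69 on the log2 scale (adjusted p = 0.000108). Of 6 genes of all leukocytes, 3 rose and none fell in CLP relative to Sham lungs. Ptprc, the CD45 gene, had a log2 change of 0.10 there (adjusted p = 0.451). None of the 6 was called by edgeR in CLP+VNS relative to Sham+VNS lungs, and 1 was called by limma or by edgeR without Sham+VNS replicate 3. The part of these other cells in the members' changes was not tested. None of the 4 genes called in CLP+VNS relative to CLP lungs belonged to a list.

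**Figure D5:**
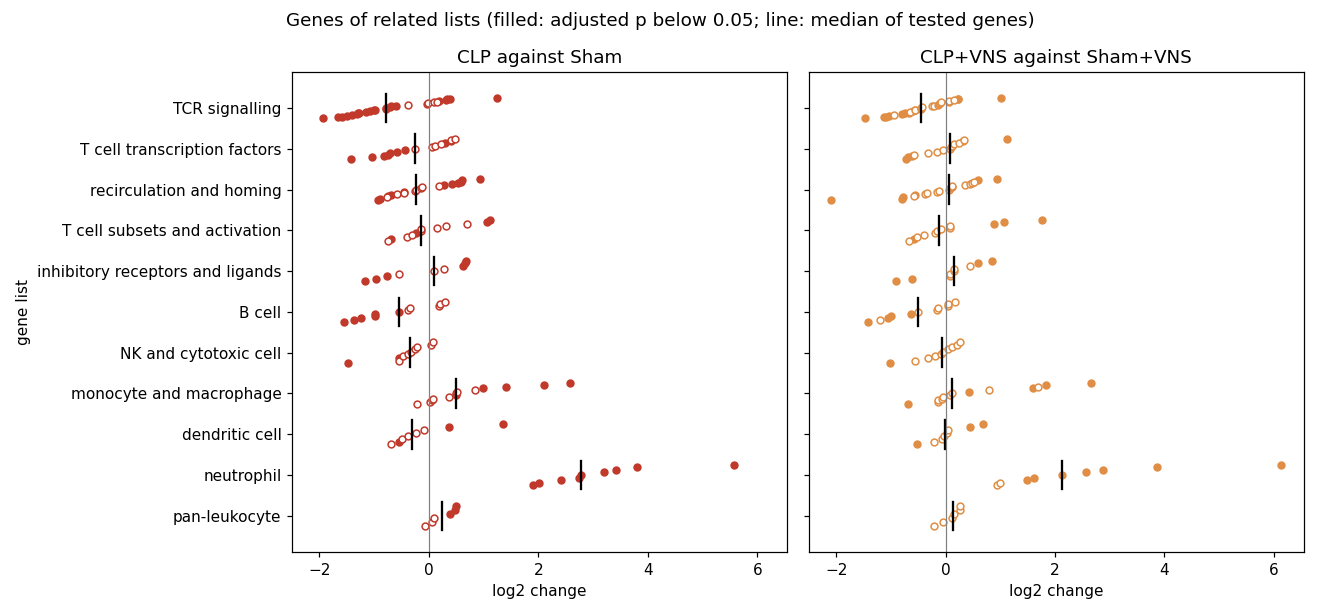
Log2 change of every tested gene of 11 related lists, in CLP against Sham lungs on the left and in CLP+VNS against Sham+VNS lungs on the right, with filled points for an adjusted p below 0.05 and a bar at each list's median. The median of T cell receptor signalling genes lies at -0.78 in CLP against Sham and that of B cell genes at -0.55, while all 9 neutrophil genes lie to the right of 0, with a median of 2.78.

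Among the 14793 other tested genes, those whose profile over the 20 libraries was most like that of Cd3e were ranked by the root mean square difference of log2 CPM centred on each gene's mean, where 0 means the same profile and the median gene had 0.67. The 5 nearest were Bdh2 (0.23), Skap1 (0.24), Cd3g (0.25), Lck (0.25) and Cd247 (0.25), and Cd3d came next at 0.27. Skap1 encodes an adaptor of T cell receptor signalling, and Bdh2 a dehydrogenase that is not known as a T cell gene. Bdh2 averaged 2.06 ± 0.464 CPM in CLP, 5.08 ± 1.56 in Sham, 2.23 ± 0.186 in CLP+VNS and 3.98 ± 0.791 in Sham+VNS lungs (SD, n = 5). The other members stood at rank 58 (Cd4, 0.34), 74 (Ccr7, 0.34), 94 (Tcf7, 0.36), 215 (Cd8a, 0.39), 2329 (Cd8b, 0.57) and 11444 (Il7r, 0.78). The other receptor chains and Lck were thus among the genes nearest to Cd3e across these libraries, and the coreceptors were farther from it. Il7r was more distant from Cd3e than the median gene. The measure takes in counting error, which weighs most on genes with few counts such as Cd8b.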

How the data were processed

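Lung RNA of 20 rats was sequenced as poly(A)-selected, strand-marked libraries with 150-base paired reads, per the labels' protocols. Per the submitters' processing notes the assembly was mRatBN7.2. The aligner, the counter and whether counting used strand are not stated in the sources used here, and strand bears on Cd8b, Lck and Ccr7, which have an overlapping long noncoding RNA in the RefSeq annotation. Per the file headers, the authors deposited estimated counts of reads (an estimated count need not be whole), FPKM, TPM and a normalised read count signal per gene and per transcript. FPKM and the normalised signal from the authors were not used. Of the deposited gene counts 91.5% were whole, and the rest were rounded. All columns were matched to samples by title, and 0 were left unused for want of a match.

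The counts were tested with edgeR 4.0.16 (quasi-likelihood, robust, TMM scaling, filterByExpr with a minimum of 10, 4 group means, 16 residual degrees of freedom, biological coefficient of variation 0.161) in R 4.3.3, with Benjamini-Hochberg adjustment over 14794 genes and calls at 0.05. SE is the log2 change divided by the root of F. Exact permutation tests (scipy 1.17.1) of ratios used log2 CPM with a prior count of 2. TPM are the deposited values. The fit was tested on simulated data. Alternatives were other scaling, no filter or a minimum of 50, DESeq2 1.42.0, limma 3.58.1 on log2(TPM + 1), a replicate block, only the groups compared, each library left out, and, chosen after seeing the data, only libraries with at most 5 CPM of Adipoq. Replicates are separate samples of a group, and p-values measure the spread between them. The 10 members and the 16 lists were chosen with earlier results of these data known. Named genes are the members, the first 2 of each list, up to 2 called genes at each end of a list in CLP against Sham, and the 5 genes most like Cd3e. Il7, Mrc1 and Mpo were named besides, after their values were seen. Of 177 list genes 175 were in the table and 153 were tested. The labels name no batch. A gene that the naming rule selects is not reported here.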

Additional observations from a re-analysis of the deposited data

Results flagged for a closer look

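Each of the 10 genes was examined in each of the 4 groups of 5 libraries for a library far from the others, 40 groups in all, and 2 were found. A gap of this relative size arises by chance in about 1 group in 20. Cd4 stood at 68.6 CPM in Sham replicate 1, where the other 4 Sham libraries had 37.0 to 45.2 CPM, a gap of 0.742 of the whole range against a critical value of 0.71. That library also had the highest Adipoq level of the 20, 285 CPM. Cd8a stood at 8.76 CPM in CLP replicate 4, where the other 4 CLP libraries had 6.25 to 6.88 CPM, a gap of 0.746 of the range. Both genes were called in CLP against Sham with and without either library.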

How the results depend on the processing

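The 9 calls among the 10 genes in CLP against Sham held under every alternative in which the gene was tested; the stricter filter, which tests neither Cd3d nor Cd8b, left 8. In CLP+VNS against Sham+VNS the 8 calls were 7 to 8 when single libraries were left out, 7 with the stricter filter and 5 with only libraries at or below 5 CPM of Adipoq (Cd3d, Tcf7 and Ccr7 lost, 4 libraries fewer). With a replicate block 5 were called there, Cd3d, Cd3g and Ccr7 being lost (adjusted p = 0.0742, 0.0505 and 0.102 in that order), with the replicate number as a term over all 20 libraries, and all genes called were 2110 against 4044. The numbers are not stated to pair animals, and same-numbered libraries correlated at -0.143 to 0.178. In CLP+VNS against CLP, 0 to 1 member was called when single libraries were left out, and all genes called were 0 to 277 against 4 (144 with DESeq2; 0 with total counts alone, with limma, with the block and with only the groups compared; 7 with the Adipoq limit).
Reversals concerned values near 0. Il7r in Sham+VNS against Sham was -0.01 with total counts alone and -0.04 with the Adipoq limit. Under the block Cd3e in CLP+VNS against CLP was -0.11, Cd3d relative to Cd3e in CLP+VNS against Sham+VNS 0.01 and the coreceptor ratio in CLP+VNS against CLP 0.02. On log2(TPM + 1), Cd3d relative to Cd3e in Sham+VNS against Sham was -0.02. Leaving out single libraries gave ranges across 0 in CLP+VNS against CLP for Ccr7 (-0.25 to 0.05), Cd3g (-0.00 to 0.30), Cd3g relative to Cd3e (-0.06 to 0.19) and the coreceptor ratio (-0.10 to 0.07). In Sham+VNS against Sham they did for Cd8a (-0.20 to 0.02), Cd8b (-0.20 to 0.15), Il7r (-0.08 to 0.10), and, relative to Cd3e, Ccr7 (-0.07 to 0.15), Cd3d (-0.06 to 0.09), Cd4 (-0.01 to 0.17) and Lck (-0.01 to 0.20). In CLP+VNS against Sham+VNS they did, relative to Cd3e, for Cd3d (-0.15 to 0.12) and Cd3g (-0.25 to 0.00) and for the coreceptor ratio (-0.16 to 0.09), in CLP against Sham for Cd3g relative to Cd3e (-0.12 to 0.05), and in the interaction for Cd4 (-0.05 to 0.21), Cd8a (-0.22 to 0.00) and Cd8b (-0.40 to 0.04). The cause was not tested. Depth limits Cd8b and Cd3d most, with as few as 6 and 9 counts in a library.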

Other observations

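The remaining lists describe other cells and the tissue. Over all tested genes 20.5% were called lower and 19.8% higher in CLP relative to Sham lungs. Of 8 dendritic cell genes tested, 1 fell and 2 rose in CLP relative to Sham lungs: Fscn1, a gene of mature dendritic cells, fell by 0.54 on the log2 scale (adjusted p = 0.0163), and Clec9a rose by 0.36 (adjusted p = 0.022) and Itgax by 1.35 (adjusted p = 1.53e-05). With only the libraries at or below 5 CPM of Adipoq, 1 of the 8 was called. Of 3 genes of type 2 innate lymphoid cells none passed in edgeR, and without Sham replicate 1 there was 1. Of 6 lung tissue genes 2 fell and 1 rose: Cdh5 of the endothelium fell by 0.64 (adjusted p = 2.18e-05), Ager of type I epithelium fell by 0.44 (adjusted p = 0.00764), and Sftpb rose by 0.69 (adjusted p = 0.00109). Of 2 lymphoid stroma genes neither passed with edgeR in CLP relative to Sham lungs, 1 did without Sham replicate 1, with limma and with the Adipoq limit, and Cxcl13, a B cell attractant, rose by 2.49 in CLP+VNS relative to Sham+VNS lungs (adjusted p = 0.0393), a call that was lost without Sham+VNS replicate 1, 3, 4 or 5 or CLP+VNS replicate 3, 5 or 8. Of 3 adipose genes tested 2 fell in CLP relative to Sham lungs, and none was called without Sham replicate 1.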
